A study of Mus musculus with 16 samples.

Results

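Bone-marrow-derived macrophages held on uncoated dishes with an IgG antibody are the reference group of a study of the αV integrin in macrophages, and their transcriptome is described here by abundance alone, with no contrast between groups. The description rests on 4 of the study's 16 samples, those labelled with no dish coating and with IgG. Genes were ranked by the mean FPKM (fragments scaled to gene length in kilobases and to library size, which allows levels of different genes to be compared) of the 4 libraries. The ranking covers the 22046 genes annotated as protein-coding among the 54532 genes of the deposited tables. Wild-type C57BL/6 mice, 2 to 3 months old, gave the marrow, taken from the tibia. It spent 24 h with CSF-1 at 12 ng/ml in medium of 15% serum, the non-adherent cells were then reseeded for 48 h with 120 ng/ml CSF-1, and the adherent cells were passaged once onto normal culture plates, grown until confluent and kept for 24 h with IgG at 10 µg/ml. RNA was selected by its polyA tail and read in pairs. Nothing in the labels says that the 4 libraries came from separate animals or cultures, so their spread may be technical. No group without antibody was analysed here, so a level below is that of cells exposed to IgG.

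Macrophages are phagocytes that take up dying cells, microbes, lipids and proteins and break them down in lysosomes. CSF-1, acting through its receptor CSF1R, drives their growth from marrow precursors and keeps them alive. Integrins are surface receptors made of an α and a β subunit: the β2 family is restricted to leukocytes, and the αV and β1 families bind matrix proteins such as fibronectin and osteopontin.

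Total counts ran from 27995035 to 43413650 per library, and protein-coding genes took 98.4% to 98.6% of them. Where a gene had 0 counts in a library, up to 3 counts (0.0691 to 0.107 CPM, counts scaled to the library total) remain possible, a limit for counting error only. Library 4 stood apart from the others. Its ranks across the expressed genes correlated with those of libraries 1, 2 and 3 at a Spearman's rho of 0.982 to 0.983, against 0.994 to 0.996 among those 3, a description across genes that are not independent replicates. In library 4, 754 expressed genes lay more than 1.5 times below the mean of the other 3 libraries, against 18 to 40 genes in each of the others. The difference moved with the GC content of the transcripts and, less strongly, with gene length. In library 4 its Spearman's rho was 0.61 with GC content and -0.29 with length. In the other libraries these were -0.55 to -0.17 and 0.088 to 0.27. Among 609 expressed genes with a GC content under 40%, the median log2 difference of library 4 from the mean of the others was -0.53, and among 2029 genes from 40% to 45% it was -0.28. Among 1702 genes from 55% to 60% it was 0.13. The part of GC content or of length in single values was not tested. Of 755 expressed genes in the lists below, library 4 lay over 1.5 times below the mean of the others in 47 and over 1.5 times above it in 4. Means without library 4 stand beside such genes where they are described, and the other means include it.

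**Figure D1:**
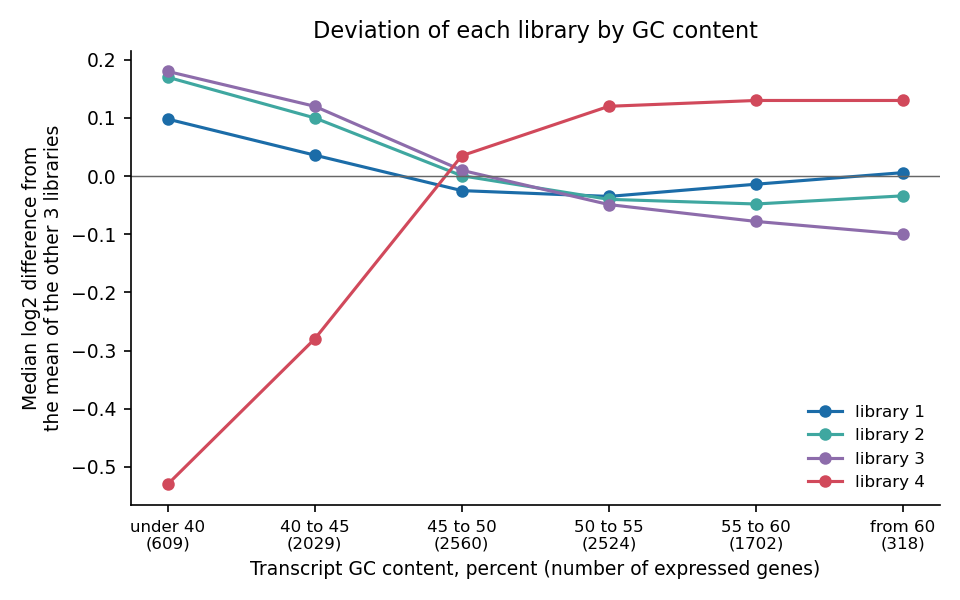
Median log2 difference of each library from the mean of the other 3 (vertical axis) over bins of transcript GC content in percent (horizontal axis, number of expressed genes in parentheses). Library 4 sits at -0.53 in the lowest bin and at 0.13 in the highest, while the other libraries stay between -0.1 and 0.18.

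Macrophage markers were abundant in each library. All 5 markers given with the rule were in the most abundant 57 genes. Lyz2, the lysozyme of myeloid cells, had 16262, 16359, 16515 and 18036 FPKM in libraries 1 to 4 and ranked first in every library. Fth1, the heavy chain of the iron store ferritin, was second with 10520, 11090, 10875 and 11697 FPKM. Ctsb, the lysosomal protease cathepsin B, had 2976, 2891, 2854 and 3147 FPKM and had rank 5 by its mean. Gpnmb, a glycoprotein of lysosomes and melanosomes, had 630, 578, 568 and 650 FPKM and rank 46. Csf1r had 498, 484, 455 and 525 FPKM and rank 57. Library 4 was the highest in all 5, at 1.08 to 1.1 times the mean of the others. A further list of 20 macrophage genes, which shares Lyz2 and Csf1r with these, had 20 of 20 expressed, and 19 of them in the most abundant 1000. Adgre1, the F4/80 antigen, had 481, 466, 458 and 485 FPKM, a narrow range.

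A gene is called expressed here at a mean FPKM of at least 1, near absent where its FPKM was under 0.1 in each of the 4 libraries, and low otherwise. By this rule 9750 of the 22046 protein-coding genes (44.2%) were expressed, 2770 (12.6%) were low and 9526 (43.2%) were near absent. No library held a single count for 6712 of them. Taken singly, the libraries had 9770, 9763, 9769 and 9682 genes at an FPKM of at least 1 (9746 ± 42.8, SD, n = 4). Of the expressed genes, 255 fell under 1 in at least 1 library. The transcriptome was concentrated: the 10 most abundant genes held 17.3% ± 0.29 (SD, n = 4) of the protein-coding FPKM, the first 100 held 36.7% ± 0.395 and the first 1000 held 67.7% ± 0.609. A mean of at least 10 FPKM was reached by 4324 genes, of at least 100 by 402 and of at least 1000 by 17. The 100 most abundant genes were short, with a median length of 1895 bases against 4375 over the expressed genes.

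**Figure D2:**
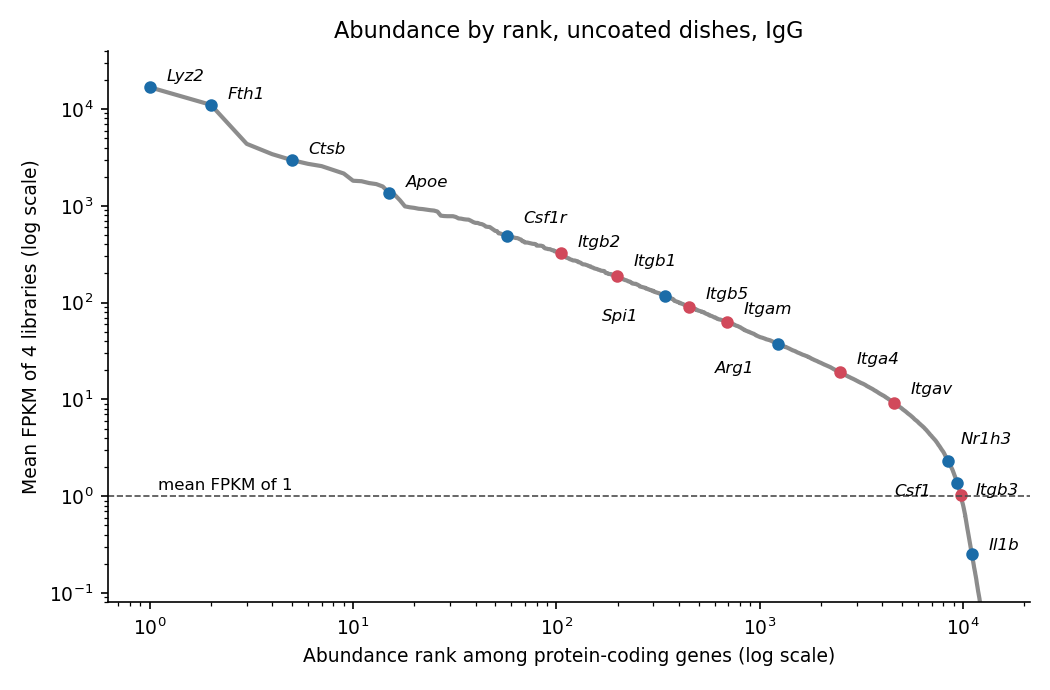
Mean FPKM of the 4 libraries (vertical axis, log scale) against abundance rank among protein-coding genes (horizontal axis, log scale), with integrin subunits in red and other named genes in blue. The curve falls from Lyz2 at 16793 to a mean FPKM of 1 near rank 9750, where Itgb3 lies.

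The 25 most abundant genes fell into a few kinds. Enzymes, cofactors and membrane proteins of the lysosome came first: Lyz2, then Psap, the precursor of the saposins that aid sphingolipid breakdown, at 3420 ± 191 (SD, n = 4), Ctsb, Ctsd at 2157 ± 64.0, Cd68 at 966 ± 54.1 and Ctss at 901 ± 14.2. Ftl1, the light chain of ferritin, had 2345 ± 165 FPKM, though 75.7% of its sampled stretches of 50 bases also occur in transcripts of other genes, so its level is uncertain. Of the C1q chains, the recognition part of the classical complement pathway, C1qb had 1718 ± 84.5 FPKM and C1qa 912 ± 64.2. Other members were Tmsb4x and Actb (thymosin β4 and β-actin), B2m, Apoe, Lgals1, Spp1, Itm2b, Selenop, Grn, the translation genes Eef1a1 and Rplp1, and 4 genes of the mitochondrial genome led by mt-Co1 at 4368 ± 313. The 146 genes of the lysosome lists together held 13.1% ± 0.36 (SD, n = 4) of the protein-coding FPKM. Their sum was 36824 to 40122 FPKM per library, of which Lyz2 alone gave 16262 to 18036. The lists also hold the cystatins, inhibitors of cathepsins, and the transcription factors of the MiT family. The 13 mitochondrially encoded genes held 3.71% ± 0.25, and 82 cytosolic ribosomal protein genes held 5.57% ± 0.21.

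Across 1423 protein-coding genes in the lists of receptors, integrins, lysosome, lipid, matrix, cytokine, transcription factor, activation and marker genes, 755 were expressed (53.1%, beside 44.2% of all protein-coding genes) and 389 were near absent (27.3%, beside 43.2%). The lysosome class was the most fully expressed of the functional classes, with 123 of 146 genes and a median of 24.5 FPKM. Receptors had 209 of 339 expressed, integrins and their partners 36 of 55, lipid genes 97 of 150, and transcription factors 124 of 228. Matrix genes had 57 of 195 expressed and a median of 0.0911 FPKM, and cytokine and other secreted factor genes 65 of 194 and a median of 0.122 FPKM, both below the median of 0.26 FPKM over all protein-coding genes. The limit of 1 FPKM separates genes of like level. Just above it lay Itgb3 (1.03) and the β2-like gene Itgb2l (1.04) of the integrin class, Pdgfa (1.18) of the secreted factors and Nr4a1 (1.04) of the transcription factors, and just below it Itga2b (0.572), Tnfsf10 (0.946) and Smad6 (0.852). Itgb2l, Nr4a1 and Tnfsf10 each lay above 1 in some libraries and below it in others.

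**Figure D3:**
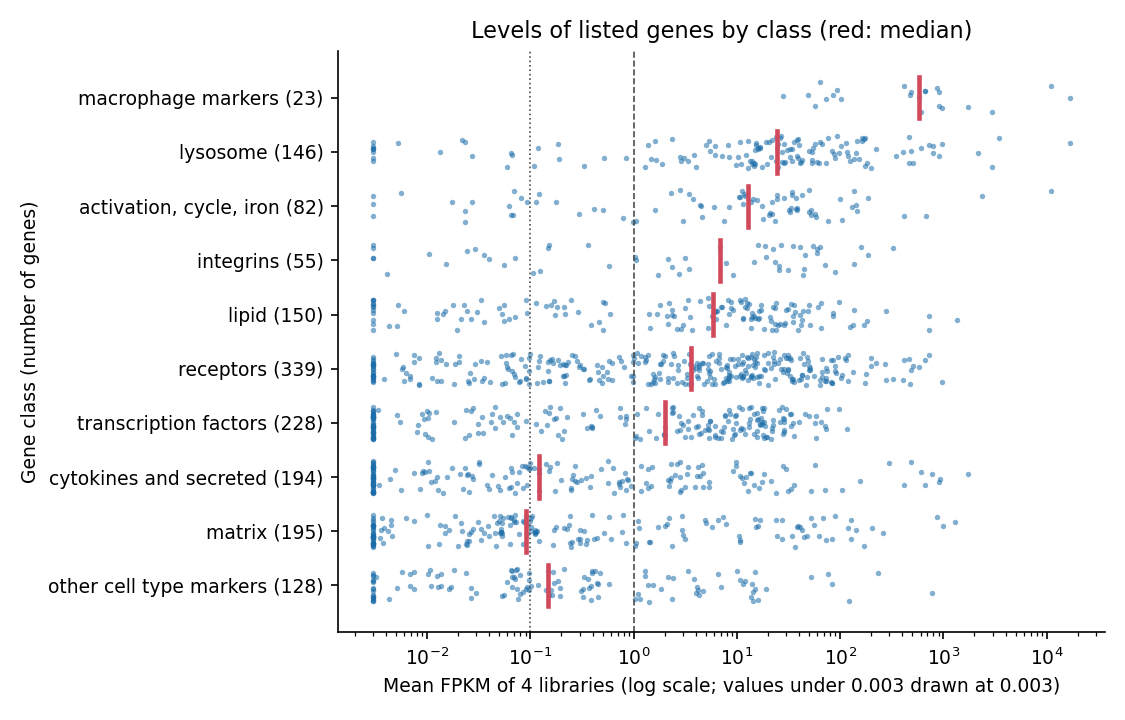
Mean FPKM of the 4 libraries (horizontal axis, log scale) of each listed gene, by class (vertical axis, number of genes in parentheses), with the class median in red, a dashed line at 1 and a dotted line at 0.1. Macrophage markers and lysosome genes lie mostly right of 1, and matrix genes, cytokines and markers of other cells mostly left of it.

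Among integrins, 9 of 18 α and 5 of 8 β subunit genes were expressed. The β order was Itgb2, Itgb1, Itgb5, Itgb7 and Itgb3, and each was above the next in 4 of 4 libraries. Itgb2, the β2 chain of leukocytes (chr10:77530252-77565708, + strand, GRCm38), had 317, 311, 306 and 358 FPKM and rank 105. Itgb1, the chain shared by the largest set of matrix receptors, had 182, 195, 196 and 178 FPKM and rank 199. Itgb5, a partner of αV (chr16:33829665-33949338, + strand), had 88.9, 88.3, 84.8 and 97.7 FPKM. These 3 were among the most abundant 450 genes in the mean, and the remaining β subunits were far lower. Itgb7 had 7.35, 6.82, 6.60 and 6.96 FPKM. Itgb3, the partner of αV in osteoclasts and of αIIb in platelets (chr11:104608000-104670476, + strand), had 1.25, 0.983, 0.878 and 1.01 FPKM, so it lay at the limit and fell below it in 2 of 4 libraries. Itgb4, Itgb6 and Itgb8 were near absent, with at most 15, 2 and 2 counts in any library.

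The α order began with Itgam, the αM chain of complement receptor 3, at 60.2, 61.0, 64.7 and 66.8 FPKM. Itga6, a laminin receptor chain, followed at 41.0, 41.0, 42.0 and 39.5 FPKM, below Itgam in each library. The next places were not separated. Itga4, the α4 chain that binds VCAM-1 and fibronectin, had 21.4, 21.5, 20.7 and 12.4 FPKM, and Itgal, the αL chain of LFA-1, had 15.8, 18.1, 18.9 and 22.0 FPKM. Itga4 was above Itgal in 3 of 4 libraries and below it in library 4, and Itgal was above Itga5 in 3 of 4. The mean of Itga4 was 19.0 ± 4.44 with library 4 and 21.2 ± 0.441 (SD, n = 3) without it, and the GC content of its transcript was 41.1%. Itga5, the α5 chain of the classical fibronectin receptor, had 16.6, 14.5, 15.1 and 17.5 FPKM. Itgav, the αV chain that the study's antibody targets in its other groups (chr2:83724397-83806916, + strand), was sixth at 9.55, 9.63, 10.2 and 7.59 FPKM, rank 4560. It was below Itga5 in every library, and lower in library 4 than in the others (9.78 ± 0.334, n = 3, without it).

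Itgax, Itga8 and Itga9 closed the expressed α chains. Itgax, the αX chain of CD11c, had 3.17, 2.95, 3.48 and 4.17 FPKM, and Itga8 had 2.90, 3.31, 3.69 and 2.77, so each was the higher in 2 of 4 libraries. Itga9 had 2.09, 2.01, 2.34 and 2.22 FPKM and was below both in each library. Itga2b, Itga1, Itgae, Itga10 and Itga2 were low, at means from 0.572 down to 0.0708, and Itga3, Itga7, Itga11 and Itgad were near absent, the last with no count in any library. Collagen-binding α chains (Itga1, Itga2, Itga10, Itga11) were thus all below 1.

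**Figure D4:**
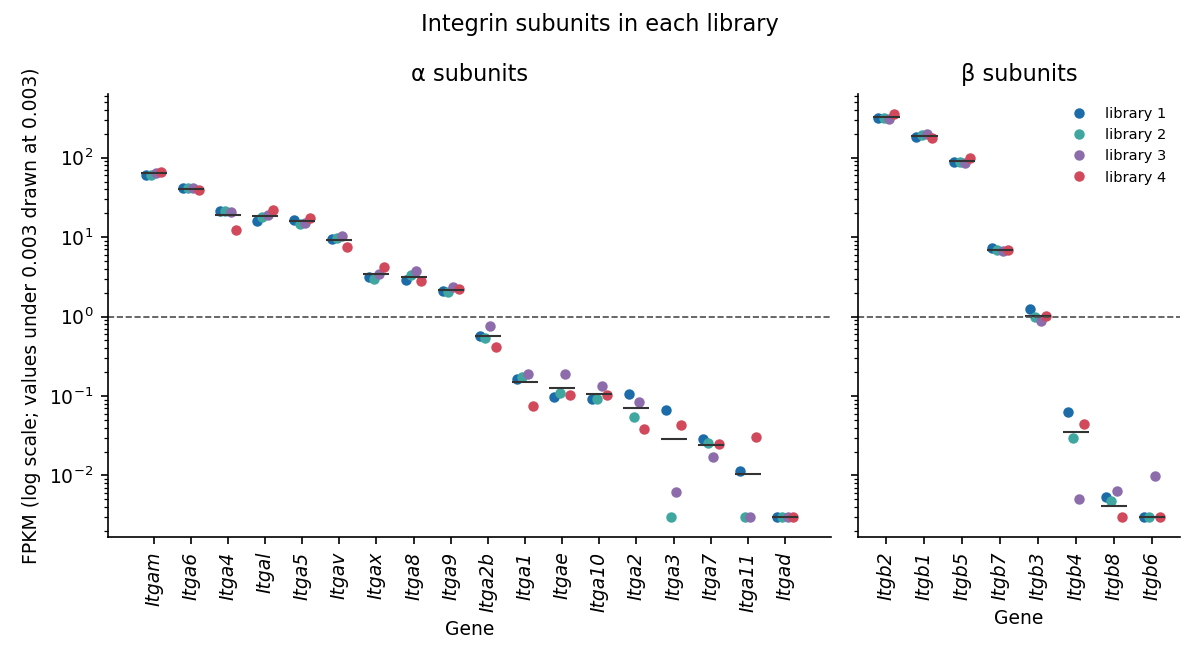
FPKM of the integrin α and β subunit genes (vertical axis, log scale) in each of the 4 libraries (colours), with the mean as a bar and a dashed line at 1. Itgb2, Itgb1 and Itgb5 stand above every α chain, Itgb3 lies at the line, and library 4 is the low point of Itga4 and Itgav.

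Of 24 known αβ pairs, 12 had both subunit genes at a mean of at least 1. The β chain was the higher in 4 of 4 libraries in each of these pairs with Itgb1, Itgb2 or Itgb5, and the α chain in 4 of 4 in the pairs of Itgav with Itgb3 and of Itga4 with Itgb7. For the αV family the transcript ratio of Itgb5 to Itgav was 9.92 ± 2.0 (SD, n = 4) and that of Itgb3 to Itgav 0.113 ± 0.022, so Itgb5 had 88.7 ± 12.0 times the FPKM of Itgb3. Without library 4 the first ratio was 8.94 ± 0.53 (n = 3). Without library 1 the mean of Itgb3 was 0.956, which left 11 pairs. Itgb1, which also pairs with αV and with other α chains, had 20.5 ± 2.0 times (SD, n = 4) the FPKM of Itgav. The αV partners Itgb6 and Itgb8 were near absent. Levels of transcripts do not give the amount of a dimer at the surface.

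Of 29 integrin activators, adaptors and partners, 22 were expressed. Fermt3, the kindlin of blood cells, had 158 FPKM and Tln1, the talin that links integrins to actin, 138, while Fermt1, Fermt2, Tln2 and Parva were low or near absent. The Src family kinase Lyn had 71.7 FPKM. Ilk, integrin-linked kinase, which binds β chain tails with LIMS and parvin proteins, was listed at 0.118, 0.0474, 0.0383 and 0.0164 FPKM, although its partners Lims1, Parvb and Parvg had 31.6, 26.5 and 25.8. In the GENCODE M21 annotation of GRCm38, 89.7% of the exon bases of Ilk lie in exons of another gene, mainly Taf10 on the opposite strand. How the authors' counting treated such reads is not given in the sources used here, so the level of Ilk is uncertain.

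Among receptors of growth factors Csf1r was the highest. Of 30 such receptors 13 were expressed (43.3%, near the 44.2% of all protein-coding genes): Csf1r at 490 ± 28.8 FPKM, then Csf2ra at 84.0, the TAM receptor Mertk at 49.0 and Nrp1 at 47.8, and 11 were near absent, among them Egfr, Pdgfra, Tyro3 and Flt3. Fc receptors had 9 of 13 expressed, led by the signalling chain Fcer1g at 586 and the IgG receptor Fcgr3 at 505, 497, 505 and 528 FPKM. The inhibitory IgG receptor Fcgr2b had 47.9, Fcgr1 72.2 and Fcgr4 49.9. Itgb2, C3ar1 (222), Cd93 (179) and C5ar1 (175) led the complement receptors and regulators, of which 10 of 14 were expressed, and Cr2, the receptor of B cells, was near absent.

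Scavenger and apoptotic cell receptors had 21 of 30 genes expressed. Cd68 had 966 FPKM, Cd36, which takes up oxidised lipoproteins and fatty acids, 720 ± 116, Stab1 465 and Lrp1 277. Cd36 had 754, 779 and 798 FPKM in libraries 1 to 3 and 549 in library 4, which did not overlap them. Its transcript has a GC content of 38.4%, and without library 4 its mean was 777 ± 21.9 (n = 3). Mrc1, the mannose receptor, led 29 C-type lectin receptors with 450, 458 and 457 FPKM in libraries 1 to 3 and 282 in library 4 (455 ± 4.16, n = 3, without it). After it came Clec4d at 274, Clec4n at 81.1 and Clec4a1 at 81.1, and 16 of the 29 were expressed. Timd4, Havcr1, Clec4f and Cd209b, phagocytic receptors and lectins of resident macrophages and dendritic cells, were near absent.

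Clec7a, the β-glucan receptor Dectin-1, was not among the ranked genes, because the deposited tables class it as a polymorphic pseudogene. It had 25.7, 23.1, 23.1 and 15.2 FPKM and would have ranked 2203. Among ITAM adaptors and paired receptors 28 of 34 were expressed and 0 near absent. Tyrobp, the DAP12 adaptor, had 667 FPKM, and the phagocytosis brake Sirpa 405. Trem2, a lipid-sensing partner of DAP12, had 121, 114, 112 and 128 FPKM.

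Sensors of microbial products were broadly expressed, with 15 of 17 Toll-like receptors and co-receptors and 18 of 18 cytosolic sensors. Unc93b1, the chaperone of the endosomal receptors, had 198 FPKM, Cd14 103, Tlr13 94.8 and Tlr8 74.4 (83.0 without library 4), all above Tlr4 at 31.0 (34.0 without it) and Tlr2 at 31.6. Tlr11 and Tlr12 were near absent. Casp1, the inflammasome protease, had 51.3 FPKM, Tmem173 (STING) 32.4, Ddx58 (RIG-I) 20.2 and Dhx58 18.7. Of 25 chemokine receptors 10 were expressed, near the 44.2% of all protein-coding genes, and none was in the most abundant 1000: Cmklr1 had 41.6 FPKM, Ccr2 26.7 (29.8 without library 4) and Cxcr4 22.9. Ccr4, Ccr6, Ccr8 and Ccr9, receptors known from lymphocytes, were near absent. Of 71 cytokine receptors 39 were expressed (54.9%, beside the same 44.2%). Both TNF receptors (Tnfrsf1b 111, Tnfrsf1a 83.9) led them, followed by Ifngr1 at 71.5 and Il10rb at 46.3. In the list of G-protein-coupled receptors for purines, lipids and peptides 34 of 63 were expressed (54.0%, beside the same 44.2%). The list also holds Adgre1, an adhesion receptor, which was the highest. P2ry6 (89.2), Ptafr (73.0) and Ednrb (67.0) followed it.

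In the lysosome class, 19 of 20 cathepsins and proteases, 43 of 46 glycosidases, sulfatases, lipases and nucleases, and 35 of 38 membrane proteins were expressed. Ctsd had 2133, 2123, 2120 and 2253 FPKM and Ctss, the cathepsin that trims the class II invariant chain, 901, 882, 914 and 909. Lgmn (asparagine endopeptidase) followed at 792. Lipa, the acid lipase that frees cholesterol from its esters, had 728 FPKM, and Hexa 410. Lamp1, a major protein of the lysosomal membrane, had 768, 789, 770 and 811 FPKM. Of the proton pump 19 of 26 subunit genes were expressed, led by Atp6ap1 (175), Atp6v1a (161), Atp6v1g1 (146) and Atp6v0d1 (125), and the 6 near absent subunits included Atp6v0a4 and Atp6v1b1 of kidney. The cystatins, inhibitors of cathepsins, were split: Cst3 had 505 and Cstb 460 FPKM, and only 3 of 12 were expressed. All 4 MiT factors, which drive lysosome genes, were expressed, Tfe3 at 16.1, Mitf at 14.7, Tfec at 10.8 and Tfeb at 6.12. Without library 4 Mitf had 16.1 and Tfe3 15.9, which turns their order. Ifi30, the lysosomal thiol reductase, was outside the ranking because the tables class it as a processed transcript. It had 196, 192, 193 and 207 FPKM and would have ranked 186. Rnaset2a and Rnaset2b were listed at 0.519 and 0.329, with 81.4% and 81.2% of their sampled stretches of 50 bases shared with other genes, so reads of these copies may have been left out.

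Promoter sequences were set beside the abundance classes. A RefSeq promoter of GRCm38.p6 (250 bases before to 50 after a start) was matched to 16506 of the 22046 protein-coding genes, the one nearest to the deposited start being taken. The motif GTCACGTG, the core bound by the MiT factors, was found on either strand in 13 of 97 matched promoters of expressed lysosome genes (13.4%), in 4.8% of those of all expressed genes, in 1.12% of those of near absent genes and in 2.97% of all. The shorter CACGTG, which it contains, was in 22.7%, 10.9%, 5.08% and 8.12%. GAGGAAGT, a form of the site of the ETS factor PU.1, was in 5 of 74 promoters of the 100 most abundant genes (6.76%), in 3.61% of those of expressed genes and in 3.14% of all. TATAAA was in 20.3% of the first of these sets, in 6.41% of expressed and in 21% of near absent genes. GGGCGG was in 66.9% of expressed and 25.8% of near absent genes, whose promoters had a median GC content of 61.0% and 49.7%. A match is a run of letters and not a measured site. The first 3 promoters shown are those of the 3 most abundant genes with GAGGAAGT before the start, and the last 3 those of the 3 most abundant lysosome genes with GTCACGTG there. They are written 5′ to 3′ on the strand of the gene, with matches on either strand in capitals. Spp1 lies at chr5:104434861-104435110 (+), Selenop at chr15:3270517-3270766 (+), Pf4 at chr5:90772185-90772434 (+), Ctsd at chr7:142387828-142388077 (-), Lamp1 at chr8:13158911-13159160 (+) and Atp6v0b at chr4:117887330-117887579 (-). The RefSeq start used is 2220 bases from the deposited one in Selenop and 211 in Ctsd, and at most 7 in the others.
Spp1: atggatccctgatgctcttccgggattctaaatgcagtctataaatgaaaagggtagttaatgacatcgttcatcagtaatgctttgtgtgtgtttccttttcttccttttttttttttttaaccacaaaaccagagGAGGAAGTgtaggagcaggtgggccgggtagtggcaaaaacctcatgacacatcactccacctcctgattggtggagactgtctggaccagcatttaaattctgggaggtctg
Selenop: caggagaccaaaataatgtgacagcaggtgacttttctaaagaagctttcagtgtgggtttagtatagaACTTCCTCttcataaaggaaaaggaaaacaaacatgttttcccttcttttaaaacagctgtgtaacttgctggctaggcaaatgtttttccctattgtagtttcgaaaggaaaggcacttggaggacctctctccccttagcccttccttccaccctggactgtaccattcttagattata
Pf4: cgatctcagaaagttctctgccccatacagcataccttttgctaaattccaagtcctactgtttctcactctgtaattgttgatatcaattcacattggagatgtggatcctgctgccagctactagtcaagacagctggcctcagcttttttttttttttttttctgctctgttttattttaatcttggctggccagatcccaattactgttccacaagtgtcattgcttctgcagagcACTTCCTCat
Ctsd: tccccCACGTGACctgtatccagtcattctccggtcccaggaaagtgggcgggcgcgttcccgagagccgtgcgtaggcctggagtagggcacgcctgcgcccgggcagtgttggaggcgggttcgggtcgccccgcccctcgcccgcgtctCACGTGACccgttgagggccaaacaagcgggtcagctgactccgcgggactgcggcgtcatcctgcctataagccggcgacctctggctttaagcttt
Lamp1: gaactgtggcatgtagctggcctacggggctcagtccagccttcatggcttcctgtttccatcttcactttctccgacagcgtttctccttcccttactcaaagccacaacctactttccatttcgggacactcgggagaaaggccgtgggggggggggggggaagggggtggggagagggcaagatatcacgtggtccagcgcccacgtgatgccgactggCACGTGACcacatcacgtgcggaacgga
Atp6v0b: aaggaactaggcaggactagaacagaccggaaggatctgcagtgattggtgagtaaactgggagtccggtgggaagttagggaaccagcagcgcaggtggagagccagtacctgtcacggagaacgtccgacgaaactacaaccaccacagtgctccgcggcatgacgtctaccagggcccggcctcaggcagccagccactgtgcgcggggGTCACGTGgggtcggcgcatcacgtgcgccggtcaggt
The GAGGAAGT match lay 113 bases before the start in Spp1, 181 in Selenop and 10 in Pf4, the last 2 as the reverse complement. Ctsd held 2 matches to GTCACGTG, at 245 and 98 bases before the start, and Lamp1 and Atp6v0b held 1 each, at 28 and 38.

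Lipid genes included abundant members for uptake, storage and efflux. Of 32 genes for uptake and lipid binding 21 were expressed, with Lipa, Cd36 and Lrp1 followed by Lpl, the lipoprotein lipase, at 134 FPKM. Plin2, which coats lipid droplets, had 163, 164, 172 and 184 FPKM, and 10 of 22 storage genes were expressed, near the 44.2% of all protein-coding genes, while the adipocyte genes Plin1, Cidea and Cidec were near absent. Apoe, the apolipoprotein that macrophages secrete with cholesterol, had 1452, 1391, 1220 and 1395 FPKM and rank 15, and 15 of 26 efflux and apolipoprotein genes were expressed. The cholesterol exporter Abca1 had 60.6, 54.2, 51.9 and 36.9 FPKM, lowest in library 4 (55.5 ± 4.52, n = 3, without it). Of the liver X receptors that control this exporter, Nr1h2 had 28.7 FPKM and Nr1h3 only 2.44, 2.08, 2.27 and 2.53. Synthesis genes had 35 of 45 expressed at a median of 8.73 FPKM, led by Acly (49.4), Fads1 (49.4), Insig1 (43.3) and Elovl1 (42.9). In the eicosanoid list 16 of 25 were expressed: Alox5ap had 126 FPKM, Cbr2 65.6, Ptges3 36.2 and Hpgds 35.7. Without library 4 Hpgds had 40.9 and Ptges3 37.1, which turns their order. Ptgs1, the constitutive cyclooxygenase, had 13.9 FPKM and the inducible Ptgs2 0.114.

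Matrix genes were few but some were very abundant. Spp1, osteopontin, an αV and CD44 ligand, had 1012, 1066 and 1113 FPKM in libraries 1 to 3 and 758 in library 4 (1064 ± 50.5, n = 3, without it). Lgals1 had 1304 ± 70.0 FPKM, Lgals3 873 and Anxa2 168. Fn1, fibronectin, was expressed by the cells themselves at 24.9, 23.8, 28.2 and 33.0 FPKM, rank 1737, and Thbs1, thrombospondin 1, at 43.3, 37.2, 35.8 and 38.6. Vtn, the αV ligand vitronectin, had no count in any library. Only 3 of 41 collagen genes were expressed, Col18a1 at 4.86, Col1a1 at 1.1 and Col4a5 at 1.04, and 25 were near absent. Laminins and basement membrane genes had 5 of 15 expressed, led by Lamc1 at 16.7 and Nid2 at 7.89. Among proteoglycans and hyaluronan genes 7 of 25 were expressed, Sdc3 at 202, Srgn at 47.9, Cd44 at 44.6 and Sdc4 at 34.5, and Acan, Dcn, Lum and Has2 were near absent.

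Among enzymes that act on the matrix and their inhibitors, Adam8 was the highest. Timp2, an inhibitor of metalloproteinases, had 120 FPKM, Mmp12, the macrophage elastase, 36.5, Mmp8 15.9 and Mmp9 15.1, with 8 of 25 expressed (beside 44.2% of all protein-coding genes). Adam8 had 261 FPKM, Serpinb6a 142, Adam9 89.9 and Adam10 72.9 (80.3 without library 4), with 13 of 26 expressed. The crosslinking factor XIII A chain, F13a1, had 128 FPKM and the collagen lysyl hydroxylase Plod1 62.7. Of 18 crosslinking and processing genes 7 were expressed (38.9%, beside the same 44.2%). Lox and Serpinh1, which serve collagen-making cells, were low at 0.25 and 0.414.

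Secreted factors were led by C1qb, the growth factor Grn and C1qa, followed by chemokines. The C1q chains C1qb, C1qa and C1qc had 1718, 912 and 666 FPKM, and Cfp (properdin) 415. Ccl6 had 561, 592, 624 and 666 FPKM and its neighbour Ccl9 (chr11:83572919-83578636, - strand) 286, 292, 305 and 312, far above Ccl2 at 32.4, 38.3, 36.9 and 36.8 and Ccl7 at 29.6. Ccl3 and Ccl4 had 28.1 and 13.4 FPKM. Of 21 CC chemokine genes 10 were expressed (47.6%, near the 44.2% of all protein-coding genes), and Ccl17, Ccl20 and Ccl1 were near absent. Ccl19 had no count, but 58.6% of its sampled stretches are shared with other genes, so its level is uncertain. Pf4, platelet factor 4, had 736, 779, 749 and 861 FPKM and rank 29, and no other CXC chemokine passed 16.2. Growth factors were led by Grn (926), Gas6 (517, 483, 454 and 510, a bridge between dying cells and TAM receptors), Mif (157) and Metrnl (104). In their list 24 of 68 were expressed (35.3%, beside the same 44.2%). Igf1 had 75.9, 79.2, 79.1 and 54.1 FPKM (78.1 ± 1.91, n = 3, without library 4).

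Interleukins and interferons were mostly lacking: 8 of 44 were expressed (18.2%, beside 44.2% of all protein-coding genes) and 26 were near absent (59.1%, beside 43.2%). Ebi3 had 14.7 FPKM, Il18 11.8, Il15 9.81 and the receptor antagonist Il1rn 4.71. Il1b had 0.339, 0.314, 0.184 and 0.177 FPKM, and Il6, Il12a, Il12b and Il23a were under 0.1 in the mean. Il10 had 1.5 and Tnf 2.64 FPKM. Il4, a cytokine of basophils and T cells, had 2.88, 2.93, 3.17 and 2.37 FPKM. The basophil proteases Prss34 and Mcpt8 were also expressed, at 16.1, 14.3, 12.5 and 11.6 and at 7.25, 6.05, 7.83 and 7.13 FPKM, whereas the basophil and mast cell markers Fcer1a, Ms4a2, Gata2 and Hdc were between 0.389 and 0.449, and Tpsab1 and Mcpt4 at 0. Cpa3, a mast cell carboxypeptidase, had 1.59, 1.30, 1.34 and 0.949 FPKM, so 3 of the 11 genes of this list were expressed. Their part in the level of Il4 was not tested.

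Ligands were set beside their receptors in 55 pairs chosen from general knowledge. Both genes were expressed in 32 pairs, the receptor alone in 12, the ligand alone in 8 and neither in 3. Of all protein-coding genes taken singly, 44.2% were expressed. No share over all gene pairs was computed, and some genes, such as Fn1 and Csf1r, stand in several pairs. The counts thus describe these chosen pairs only. Csf1r belonged to a nearly one-sided pair. Its ligand Csf1 had 1.72, 1.51, 1.03 and 1.22 FPKM, and its other ligand Il34 was near absent, in cells given CSF-1 protein in the medium. The receptor alone was also expressed for Csf2 (GM-CSF) and Csf2ra, Tnfsf11 (RANKL) and Tnfrsf11a, Ifng and Ifngr1, and Cxcl12 and Cxcr4. The ligand alone was expressed for Cxcl16 and Cxcr6, Il18 and Il18r1, Osm and Osmr, Hgf and Met, Vegfa with Flt1 and Kdr, and the PDGF chains Pdgfa and Pdgfb with Pdgfra and Pdgfrb. Both were abundant for Apoe with Lrp1 and Trem2, Gas6 with Mertk, and Cd47 with Sirpa. For the ligands of αV, Spp1 and Fn1 were both expressed with Itgav.

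**Figure D5:**
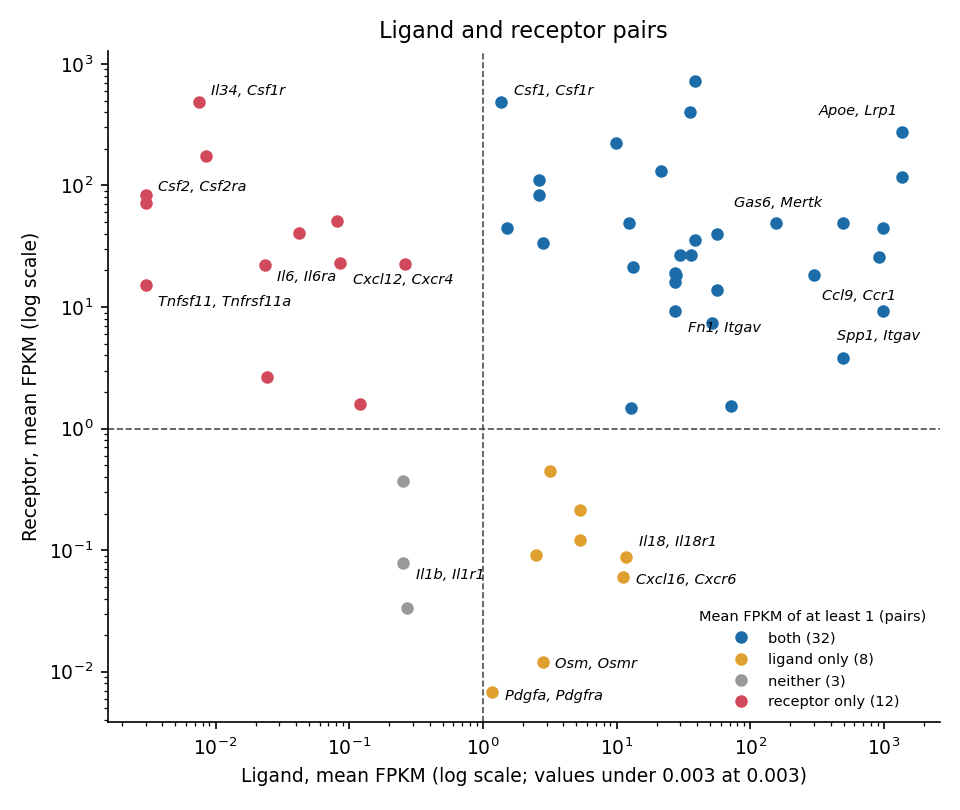
Mean FPKM of the receptor (vertical axis, log scale) against that of the ligand (horizontal axis, log scale) for 55 pairs, with dashed lines at 1 and colours for which members are expressed. Csf1r stands at 490 with Csf1 at 1.37, and the upper right field holds the 32 pairs with both genes expressed.

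Of the 228 listed transcription factors 1 reached 100 FPKM. Outside the list, Ybx1, a cold shock domain protein that the deposited tables count as a factor, had 324 FPKM. The listed gene was Spi1, PU.1, the ETS factor that sets the myeloid fate, at 115, 114, 114 and 125 FPKM. Maf had 97.0, 101, 97.6 and 96.1 FPKM. Cebpa had 74.1 and Irf5 71.5. Of 57 factors of the macrophage lineage 48 were expressed, against 6 of 31 factors of other blood lineages, among which Lmo2 (73.4) and Lyl1 (33.3) were the highest and Pax5, Ebf1, Tbx21 and Gata3 were near absent. All 35 factors of tissue and non-blood lineages were near absent, including Gata6 and Sall1 of resident macrophages, both with no count. Nuclear receptors had 18 of 43 expressed (41.9%), led by Rxra at 34.98, Nr1h2, Nr3c1, the glucocorticoid receptor, at 18.4 (20.3 without library 4) and Nr1d2 at 17.8 (19.7 without it). Pparg had 7.43 FPKM and Ppara was near absent. STAT, IRF, NF-κB and stress-regulated factors had 52 of 63 expressed, led by Stat6 (65.6), Atf3 (50.4), Xbp1 (45.6) and Atf4 (40.2).

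The deposited tables also give a factor family for 1451 protein-coding genes, of which 638 were expressed (44.0%, near the 44.2% of all protein-coding genes). The share was 93.3% of 15 ARID, 87.5% of 24 MYB, 77.1% of 48 bZIP, 72.7% of 44 ZBTB and 61.5% of 26 ETS factors, and 7.42% of 229 homeobox and 5.88% of 17 T-box factors. The highest homeobox genes were Cers2 at 67.1 FPKM, a ceramide synthase with a homeobox-like domain, and Hlx at 20.9. Of 1135 olfactory receptor genes none was expressed.

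Both activation lists held expressed and near absent members. In the classical activation list 9 of 18 were expressed: the class II genes H2-Eb1, H2-Aa and H2-Ab1 had 17.96, 11.4 and 10.7 FPKM with Cd74 at 49.5, and Nos2, Il12b, Cxcl9 and Il6 were low or near absent. In the alternative list 10 of 18 were expressed (55.6%, beside the same 44.2%). Mrc1, Chil3 (52.3), Arg1 and Il4ra (33.5) were the highest, and Ccl17 and Chil4 were near absent. Arg1, arginase 1, varied more between libraries than most, at 26.1, 34.5, 42.99 and 47.1 FPKM. All 23 genes of the proliferation list were expressed (beside 44.2% of all protein-coding genes). The list includes inhibitors of the cell cycle, Cdkn1a at 98.7 and Cdkn2a at 3.45 FPKM, so it is not made of growth genes alone. Pcna, the clamp of DNA replication, had 126, 134, 135 and 151 FPKM, and Mki67, the Ki-67 antigen of cycling cells, 59.95, 66.2 and 67.3 in libraries 1 to 3 and 35.7 in library 4 (64.5 ± 3.94, n = 3, without it). Iron and haem genes had 18 of 23 expressed: after ferritin came Hmox1, haem oxygenase 1, at 605, 668, 683 and 761, Slc48a1 at 188 and the iron exporter Slc40a1 at 131.

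Of 128 markers of other cells 39 were expressed (30.5%, beside 44.2% of all protein-coding genes). A further 47 were low, and 42 were near absent (32.8%, beside 43.2%). In bulk RNA, fewer cells of a type and less RNA per cell cannot be told apart. Neutrophil and granule genes had 16 of 16 expressed: S100a9 had 240, 235, 239 and 208 FPKM, S100a8 123, Ngp 86.1, 79.7, 83.7 and 81.7, and Chil3 52.3. Elane, Mpo, Prtn3 and Ctsg, the granule proteases of promyelocytes, had 4.05 to 6.53, and Ly6g 1.30. The 11 T and NK lymphocyte markers had none expressed and 9 near absent, and endothelial markers had 0 of 9 expressed. Of 6 eosinophil markers 2 were expressed, Ccr3 at 2.17 and Prg2 at 1.85. B-lymphocyte (1 of 9), dendritic (2 of 12), stromal (2 of 15), erythroid (2 of 11) and progenitor (1 of 9) markers were as scarce. The highest of these were Tfrc at 76.0 (83.6 without library 4), the transferrin receptor of any growing cell, and Ly6a at 14.2. Pf4 apart, the megakaryocyte markers Ppbp and Vwf had 4.66 and 1.154, Gp9 0.16 and Gp6 was near absent. Of 12 osteoclast genes 7 were expressed, led by Mmp9, Tnfrsf11a (15.0), Atp6v0d2 (14.1) and Nfatc1 (12.1), while Ctsk had 2.37 and Calcr no count.

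Of 47 markers of macrophages resident in tissues 23 were expressed (beside 44.2% of all protein-coding genes). The heart and interstitial list had 9 of 10 expressed, Gas6, Mrc1, F13a1 and Igf1 the highest, and Timd4 had no count. The red pulp list had 4 of 7 (Hmox1, Slc40a1, Cd163 at 11.3 and Treml4 at 2.92), the microglia list 4 of 9 (among them P2ry12 12.2, Gpr34 8.02 or 8.82 without library 4, Cx3cr1 1.59), the alveolar list 3 of 8 (Marco 91.6, Chil3, Pparg), the Kupffer list 3 of 7 (Cd5l 31.0, Id3 17.7, Nr1h3) and the peritoneal list 1 of 8 (Icam2 6.29). Several of these genes, such as Mrc1 and Hmox1, are shared by many macrophages.

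Variation between the 4 libraries was small for most genes. Among the 4324 genes with a mean of at least 10 FPKM the median coefficient of variation was 6.50%, against 1.74% from counting alone, and it was over 20% in 193. The 8 most variable were Sumo2, Rps27rt, Ifi209, Cd300ld3, Rps27, Ifit2, Rp2 and Ifit1. Sumo2, a ubiquitin-like modifier, had 3.40, 4.30, 30.9 and 4.30 FPKM, so library 3 alone set its mean (4.00 without it, against 10.7). Rps27rt, a retrogene of the ribosomal protein gene Rps27, had 131, 227, 92.4 and 48.4 FPKM while Rps27 had 70.9, 58.2, 110 and 122, so the copy was the higher in libraries 1 and 2 and the parent in libraries 3 and 4. Of the sampled stretches of Rps27rt, 92.3% also occur in other genes' transcripts, so the split between the pair is uncertain. The interferon-induced Ifit2 had 35.7, 38.1, 27.6 and 16.2 FPKM, lowest in library 4, with a GC content of 42.0%.

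Levels near 0 were also set against gene overlap. Of the 668 list members that were not expressed, 26 had over 50% of their exon bases in exons of another gene, or over 50% of their sampled stretches of 50 bases in transcripts of another gene. These include Ilk, Rnaset2a and Rnaset2b, the complement genes Cfb (0.0487 FPKM) and C2 (0.0399), the megakaryocyte gene Gp1bb, the apolipoprotein gene Apoc2, Tnfsf13, Cpt1b, Fosl1 and the haemoglobin genes. For them a low value is not evidence that the gene is off. Fdps, an enzyme of the mevalonate pathway, was listed at 0.503 FPKM with its pathway neighbours Idi1, Mvd and Fdft1 at 6.23 (6.97 without library 4), 16.0 and 6.36, and 26.7% of its exon bases lie in another gene. Among the 100 most abundant genes 13 shared over 50% of their stretches with other transcripts, among them Eef1a1, Ftl1 and Rplp1.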

How the data were processed

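RNA of the 16 samples was read in pairs on a NovaSeq X Plus, and the 4 IgG libraries from uncoated dishes were used here. The authors deposited counts per gene and FPKM, and the submitters' processing notes name HISAT2, StringTie and featureCounts with mm10 and GRCm38.p6. Their versions, the strand setting and the treatment of reads with several matches were not given in the sources used here. FPKM was averaged over the 4 libraries and ranked over protein-coding genes. No test between groups was run, since none were compared, and Dixon's test was used for single libraries that stand apart.

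A gene was expressed at a mean FPKM of at least 1 and near absent under 0.1 in each library. TPM, TMM scaling (edgeR 4.0.16 in R 4.3.3), other thresholds, CPM and leaving out each library were tried, with Python 3.11.15, pandas 2.3.3, numpy 2.4.6 and matplotlib 3.10.9. The scripts were tested on simulated data. GENCODE M21 on GRCm38 gave GC content and overlaps, and RefSeq gave promoters.

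Members and lists were chosen with earlier results of these data known. Named genes are the 25 most abundant, the integrins, and the highest and some near absent members of each list. Genes named beyond that rule, and the integrin pairs, were chosen after their values were seen. Of the listed symbols 6 were not ranked, 2 (Siglec5 and Tf) because they were not found in the tables and 4 because their biotype is not protein-coding, and 28 symbols stand for more than 1 gene. Some members of the lists are not reported here.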

Additional observations from a re-analysis of the deposited data

Results flagged for a closer look

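Of the genes named above, 66 had their 4 values checked, and the rest were not. Among the 66, 10 had 1 library far from the other 3. The gap to the nearest of them, as a share of the whole range, was above Dixon's 95% critical value. Genes outside the 66 can show the same, such as Tlr8 with 48.4 FPKM in library 4 and 82.2 to 84.0 in the others. The 10 are thus not a full set, and their number is not a rate over all genes. Chance gives this in about 1 in 20 groups that were not picked by their values, and genes of 1 library are not independent. Sumo2, Rps27, Rps27rt and Ifit2 were among the 66 and are also among the most variable genes over these same libraries, so that rate does not hold for them. In 9 of the 10 it was library 4, whose difference from the others moved with GC content and gene length. The part of GC content or of length in each was not tested. Library 4 was the highest for Lyz2 at 18036 FPKM (others 16262 to 16515), Ctsd at 2253 (2120 to 2133), C1qb at 1844 (1666 to 1688), C1qa at 1007 (869 to 889) and Spi1 at 125 (114 to 115). It was the lowest for Mrc1 at 282 FPKM (450 to 458), S100a9 at 208 (235 to 240), Igf1 at 54.1 (75.9 to 79.2) and Itga4 at 12.4 (20.7 to 21.5). Library 3 was the highest for Sumo2 at 30.9 FPKM (3.40 to 4.30), which restates the spread it was named for.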

How the results depend on the processing

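Without the mitochondrially encoded genes the 100 most abundant genes held 35.2% of the protein-coding FPKM and the first 1000 held 66.6%, a move of more than 1 SD between libraries. Leaving out each library in turn gave 9733 to 9768 expressed genes, 9633 to 9680 near absent genes, 17.2% to 17.4% for the first 10 genes, 36.5% to 36.8% for the first 100 and 67.4% to 67.9% for the first 1000. The number of expressed genes was 10422 at a threshold of 0.5, 8739 at 2, 10834 by TPM and 9767 by TMM scaling. The FPKM of all genes summed to 311738 to 321799 per library, so a TPM of 1 is a lower limit than an FPKM of 1. TPM left the ranks of expressed genes at a Spearman's rho of 1.0 with the main ones, so its counts show the lower limit and not another order. Of 603 list counts under the alternatives 19, in 14 lists, moved by over 1.5 times, none of them by leaving out a library. By TPM, markers of other cells had 54 expressed in place of 39, mast cell and basophil markers 7 in place of 3 and microglia markers 7 in place of 4, and at a threshold of 2 FPKM 1 collagen gene was expressed in place of 3. Ranks depend on length scaling: by CPM 63 of the first 100 genes were kept, and Lrp1 moved from rank 119 to 8 and Stab1 from 64 to 10. TPM and TMM scaling kept 100 of 100. No paired analysis was possible because a single group was described and no groups were compared. Counting error limits genes near 0, and overlap or shared sequence limits others, which depth does not mend.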

Other observations

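Outside the protein-coding ranking, the highest FPKM was that of Gm23935, a gene of 57 bases classed as a miRNA, at 16454, 16969, 11435 and 13183. It is not part of the shares above.

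Counted without length scaling, long genes of uptake receptors stood higher: Lrp1 had 5003 CPM and Stab1 4876, at lengths of 17717 and 10288 bases, next to Actb at 4907.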
